A study of Pseudotsuga menziesii with 10 samples.

Results

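Seed cones of Douglas-fir (Pseudotsuga menziesii) are built from bracts and scales, and the transcripts of these 2 tissues were compared as cone scales against cone bracts. The comparison uses 2 of the 10 libraries of a study of seed development, 1 library for each tissue. The members were taken by tissue from the labels. The scales were whole scales and the bracts were bracts, both from developing cones collected on 26 May 2011. Both came from genotype 970, a single clone planted as several ramets in a seed orchard, so neither library shows variation between trees. The labels do not give the pollination state of these cones, and they do not say whether ovules were taken off the whole scales. The other 8 libraries, used here only as context, are pools of megagametophytes (the haploid tissue that feeds the embryo) of the same clone, pollinated or left without pollen, on 10, 22 and 30 June and 6 July 2011. Scales and bracts have no second library, so the differences below have no replicate check, carry no p-value and compare these libraries only.

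In a conifer seed cone each scale sits in the axil of a bract, and the pair forms 1 unit of the cone. The scale carries the ovules on its upper face and later turns into the woody plate that covers the seeds. The bract is a leaf-like organ, and in Douglas-fir its pointed tip stands out beyond the scale. The deposited table identifies assembled transcripts (contigs) by number and pairs none with a gene, so contigs are described by their levels, their spread over tissues and their numbers. For the same reason the 2 tissues could not be checked against marker genes.

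Most contigs stood at similar levels in both tissues. Levels are given in FPKM (fragments normalised for the length of the contig and the size of the library), read from the deposited log values as log2(FPKM + 1). A total of 10151 of the 54889 contigs reached 10 FPKM in scales or bracts and were compared. Of these, 7285 reached 10 FPKM in both tissues, 1415 in scales only and 1451 in bracts only. The difference between tissues, scales minus bracts on the log2(FPKM + 1) scale, had a median of 0.02, and the quartiles lay at -0.43 and 0.44. A difference of 1 on this scale is called 2-fold here. Of the compared contigs, 2266 (22.3%) were 2-fold or more apart and 7885 (77.7%) were not. In bulk tissue, fewer cells of a type and less RNA per cell cannot be told apart.

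Scales were higher for 999 contigs (9.84% of those compared) and bracts for 1267 (12.5%). The median level of the 999 contigs was 21.3 FPKM in scales against 5.92 FPKM in bracts. That of the 1267 contigs was 5.87 FPKM in scales against 21.9 FPKM in bracts. The 2 sets had similar medians in the tissue where they were high, and both were picked by these same levels. They held a small part of the transcripts: contigs higher in scales made up 10.4% of all FPKM in scales and 2.61% in bracts, and contigs higher in bracts made up 3.61% in scales and 12.7% in bracts. Contigs lay close to the threshold on both sides, with 279 within 0.1 log2 units inside it and 317 within 0.1 outside it. With both columns scaled to equal sums, the 2 counts came to 1106 for scales and 1160 for bracts, and the median difference was 0.093. Centred on the median difference, the counts came to 962 and 1307, and under quantile normalization to 1017 and 1242. The size of the lead of the bracts thus changed with the scaling.

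**Figure D1:**
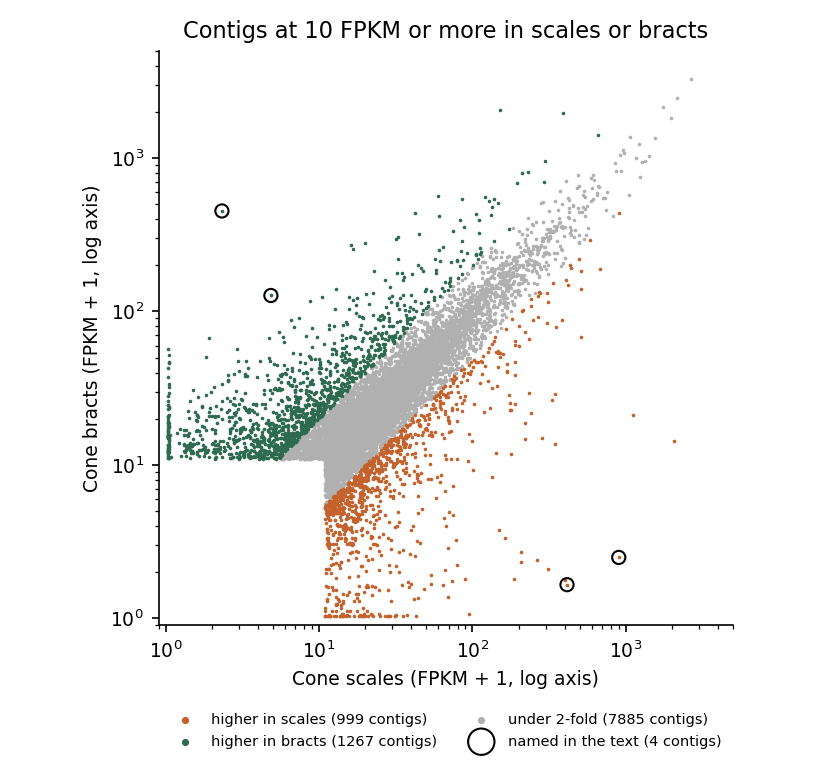
Each point is 1 of the 10151 contigs at 10 FPKM or more in either tissue, with its level in cone scales on the horizontal axis and in cone bracts on the vertical axis (FPKM + 1, both log axes). The 999 contigs higher in scales lie at the lower right, the 1267 higher in bracts at the upper left and the 7885 under 2-fold in the grey band, and circles mark the 4 contigs named in the text.

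The widest differences leaned the other way. At 4-fold or more, 316 contigs (3.11%) were higher in scales and 467 (4.6%) in bracts, and at 8-fold or more 166 (1.64%) and 202 (1.99%). At 16-fold or more, however, 65 (0.64%) were higher in scales and 41 (0.404%) in bracts. At 32-fold the counts were 24 (0.236%) for scales and 9 (0.0887%) for bracts, and at 64-fold 10 (0.0985%) and 1 (0.00985%). The lead of scales at these sizes held under some settings and not throughout under others. At 16-fold, 41 contigs were higher in scales and 15 in bracts with a minimum of 30 FPKM. The counts were 75 and 35 under quantile normalization, and 15 and 1 with 5 FPKM in place of 1 FPKM added before the logarithm. With 0.1 FPKM in place of 1 FPKM added before the logarithm, 141 contigs were higher in scales and 161 in bracts at 16-fold, 99 and 88 at 32-fold, and 70 and 74 at 64-fold. Reading the deposited values as natural logarithms gave 271 for scales and 337 for bracts at 16-fold, 123 and 127 at 32-fold, and 56 and 31 at 64-fold.

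The widest gap belonged to a contig of the scales. GAZW02035022 stood at 896.6 FPKM in scales, where it ranked 21st of all contigs, against 1.5 FPKM in bracts, a difference of 8.49 log2 units. In the 8 megagametophyte libraries its lowest, median and highest values were 0.0425, 0.0425 and 0.275 FPKM. GAZW02037646 stood at 412.0 FPKM in scales against 0.659 FPKM in bracts, a difference of 7.96 log2 units, and at 0.0353, 0.0389 and 0.0497 FPKM (lowest, median and highest) in megagametophytes. Both contigs were high in scales and under 1 FPKM in every megagametophyte library. Their bract values lie in the low range where the bract library as a whole ran higher, as described below.

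On the bract side, GAZW02021537 stood at 1.33 FPKM in scales against 450.9 FPKM in bracts, where it ranked 71st, a difference of -7.60 log2 units. Its lowest, median and highest values in megagametophytes were 0.0425, 0.0461 and 0.424 FPKM. GAZW02060246 stood at 3.86 FPKM in scales against 126.1 FPKM in bracts, a difference of -4.71 log2 units. In megagametophytes it ranged from 0.0425 FPKM over a median of 0.202 FPKM to 3.29 FPKM. Unlike GAZW02021537, it exceeded 1 FPKM in some megagametophyte libraries.

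The 10 contigs with the widest gaps in each direction were also followed in megagametophytes. They were taken among those at 100 FPKM or more in one tissue, with the named contigs included. The 10 on the scale side stood at 185.1 to 2061 FPKM in scales and 0.659 to 20.1 FPKM in bracts. Of these, 6 stayed under 1 FPKM in all 8 megagametophyte libraries and 3 reached 10 FPKM in at least 1 of them. One of the 3 stood at 1104 FPKM in scales, 20.1 FPKM in bracts and 96.7 to 1509 FPKM in megagametophytes. Another stood at 309.8 FPKM in scales, 1.08 FPKM in bracts and 88.9 to 500.5 FPKM in megagametophytes. In both contigs every megagametophyte library was above the bracts. The 10 on the bract side stood at 1.33 to 149.1 FPKM in scales and 116.0 to 2061 FPKM in bracts. None of them reached 10 FPKM in a megagametophyte library, and 6 stayed under 1 FPKM in all 8. All contigs 2-fold or more apart and at 100 FPKM or more in their higher tissue numbered 94 for scales and 115 for bracts. Of these, 63 (67.0%) and 63 (54.8%) reached 10 FPKM in at least 1 megagametophyte library. A total of 14 (14.9%) and 24 (20.9%) stayed under 1 FPKM in all 8.

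The most abundant transcripts were largely shared. Of the 100 most abundant contigs of each tissue, 63 were the same, and of the 500 most abundant 365. A single contig, GAZW02101430, ranked first in both, at 2646 FPKM in scales against 3258 FPKM in bracts; it was chosen for description after its values were seen. In megagametophytes it stood at 11.6 to 57.9 FPKM. Of the 10 most abundant contigs of scales, 9 differed by less than 2-fold from bracts. The exception stood at 2061 FPKM in scales against 13.3 FPKM in bracts, and it had a median of 38.2 FPKM in megagametophytes. Of the 10 most abundant contigs of bracts, 7 differed by less than 2-fold. The widest gap among the other 3 belonged to a contig at 149.1 FPKM in scales against 2061 FPKM in bracts. Among contigs at 100 FPKM or more in their higher tissue, 94 were higher by 2-fold or more in scales and 115 in bracts.

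Some of the contigs that were 2-fold apart were present in 1 tissue and nearly absent from the other. There were 114 contigs (1.12% of those compared) at 10 FPKM or more in scales and under 1 FPKM in bracts, and 152 (1.5%) at 10 FPKM or more in bracts and under 1 FPKM in scales. The 114 had medians of 16.8 FPKM in scales against 0.194 FPKM in bracts, and the 152 had medians of 0.257 FPKM in scales against 14.2 FPKM in bracts. They held 0.703% of the FPKM of scales and 0.516% of the FPKM of bracts. The larger number on the bract side turned with 2 settings: under quantile normalization the counts were 136 for scales and 124 for bracts, and at a minimum of 30 FPKM 23 and 10. The limit of 1 FPKM lies in the low range where the bract library as a whole ran higher, as described below. Its effect on the 2 counts was not tested.

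The balance of the comparison changed with the level of the contig. The share higher in scales was 14.1% among the 185 contigs whose higher value was 300 FPKM or more, and the share higher in bracts was 15.1%. In the class of 10 to 30 FPKM the shares were 10.6% and 13.3%. Under 10 FPKM, outside the main comparison, they parted: 9.15% and 20.7% in the class of 3 to 10 FPKM, and 6.07% and 26.0% in the class of 1 to 3 FPKM. The median difference was 0.03 log2 units at 10 to 30 FPKM, -0.15 at 3 to 10 FPKM and -0.58 at 1 to 3 FPKM. The excess on the bract side among low contigs thus came with a median difference on the bract side. With a minimum of 1 FPKM, 3330 contigs were higher in scales and 9207 in bracts. When each class was first centred on its own median, a setting chosen after the data were examined, the counts became 4783 and 3961. Centring itself moves the balance of the 2 directions, so these counts show only that the balance among low contigs depends on it.

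**Figure D2:**
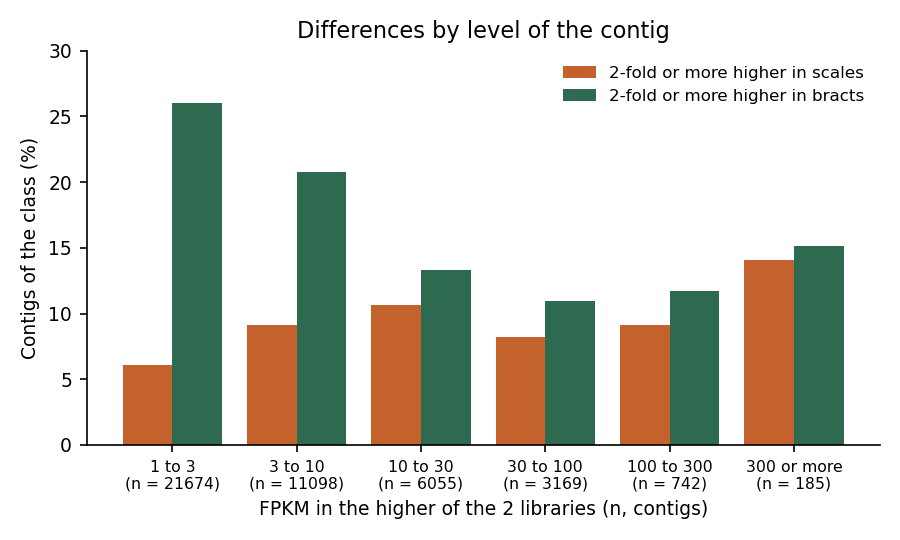
Bars give the percentage of contigs that were higher in scales (left bar) or in bracts (right bar) by 2-fold or more, by the FPKM of the contig in the higher of the 2 libraries, with the number of contigs under each class. The 2 bars are close from 10 FPKM upward and part below it, at 6.07% for scales and 26.0% for bracts in the class of 1 to 3 FPKM.

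Low values were distributed differently in the bract library than in the other 9. Contigs at 1 FPKM or more numbered 28069 in scales, 39644 in bracts and 22662 to 29242 in megagametophytes, while contigs at 10 FPKM or more numbered 8700, 8736 and 8468 to 8815. Deposited log values between 0.1 and 0.5 fell on 13 distinct levels in bracts, and on 40 in scales and in each megagametophyte library. Only 5688 contigs had a value of 0.07 or less in bracts, against 10572 in scales. Contigs at 1 FPKM or more in bracts and under 1 FPKM in the other 9 libraries numbered 10270, and 89.5% of these were under 3 FPKM in bracts. The matching set for scales held 1305 contigs, of which 80.8% were under 3 FPKM in scales. Only 43 contigs of the scale set and 93 of the bract set reached 10 FPKM. The median of the bract set was 1.46 FPKM. The table keeps only contigs that exceed about 1 FPKM somewhere, so contigs in these sets are there because of 1 library. The part that the distribution of low values plays in these sets was not tested, and reads per library are unknown.

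**Figure D3:**
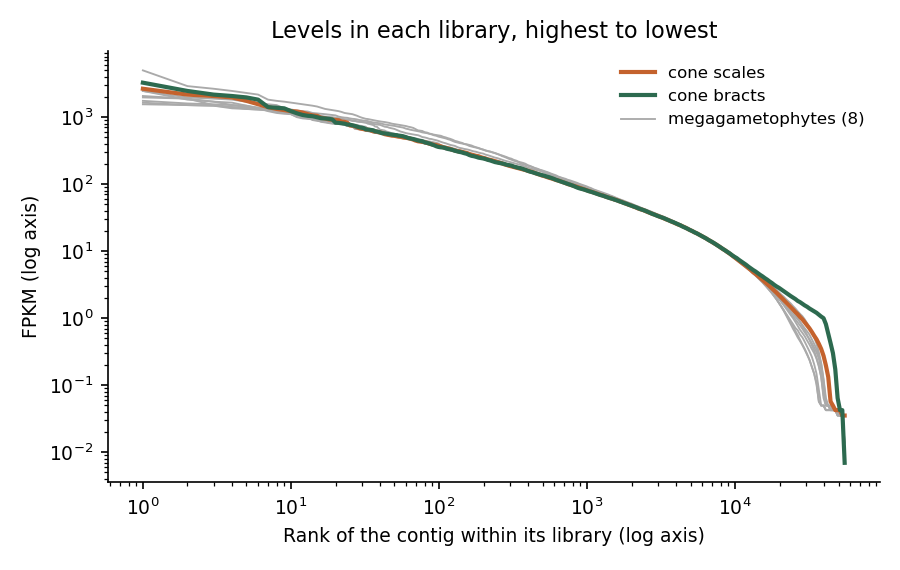
Lines give the FPKM of contigs in each library (vertical log axis) against the rank of the contig within that library (horizontal log axis), for scales, bracts and the 8 megagametophyte libraries. The curves run close together near 10 FPKM, which 8468 to 8815 contigs reached in each library. Below that the bract curve stays above the others over most ranks and bends near 1 FPKM, which 39644 contigs reached in bracts.

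Scales and bracts were closer to each other than either was to any megagametophyte library. By the same rule (2-fold or more apart, the higher value at 10 FPKM or more), 22.3% of compared contigs separated scales from bracts. The 8 pairs of scales with a megagametophyte library gave 44.1% to 64.2%, and the 8 pairs of bracts with one gave 50.1% to 69.1%. Pollinated and unpollinated megagametophytes of the same date gave 6.68% to 9.67% in 4 pairs, all below the value for the cone tissues. Of the 24 pairs of megagametophytes of different dates, 4 gave a lower share and 20 a higher one, over a range of 15.5% to 54.0%. Scales and bracts thus differed more than did pools of 1 tissue and date. They differed less than most of the 24 pairs of megagametophyte libraries of different dates, which include pairs across pollination states. Cone tissues and megagametophytes differ in date as well as in tissue, and these cannot be told apart in their pairs. The 45 pairs share libraries and are not independent, and the shares are descriptions.

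**Figure D4:**
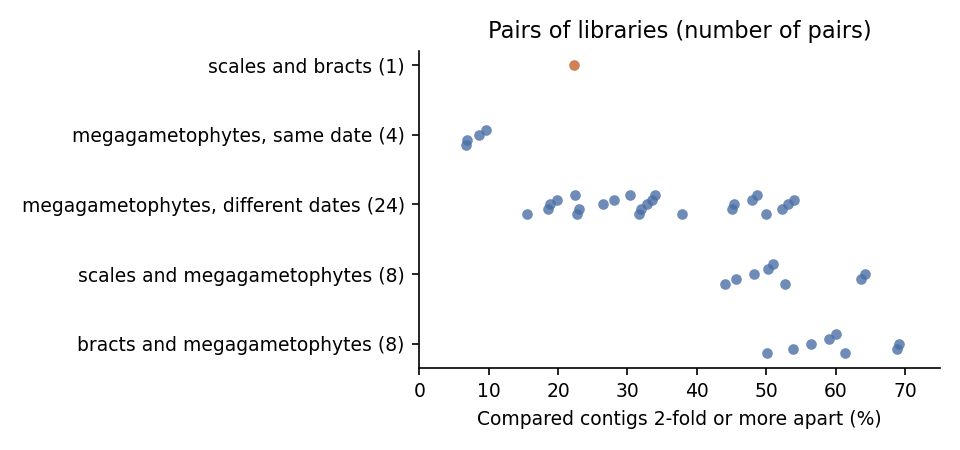
Each point is 1 pair of libraries, placed by the percentage of compared contigs that were 2-fold or more apart, with the kinds of pair in rows and the number of pairs in brackets. The pair of scales and bracts lies at 22.3%, above the 4 same-date megagametophyte pairs and below the 16 pairs of a cone tissue with megagametophytes.

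Contigs higher in scales were more often present in megagametophytes than contigs higher in bracts. Of the 999 contigs higher in scales, 237 (23.7%) reached 10 FPKM in all 8 megagametophyte libraries, against 91 (7.18%) of the 1267 higher in bracts. Among the 7885 contigs under 2-fold apart the share was 51.5%. Absence showed the reverse: 171 contigs higher in scales (17.1%) and 333 higher in bracts (26.3%) stayed under 1 FPKM in all 8, against 3.86% of the contigs under 2-fold apart. By level, the shares under 1 FPKM in all 8 were 17.1% for the scale set and 30.3% for the bract set at 10 to 30 FPKM, 18.0% and 18.7% at 30 to 100 FPKM, and 14.9% and 20.9% at 100 FPKM or more. Among contigs 8-fold or more apart, 23 of 166 higher in scales (13.9%) and 2 of 202 higher in bracts (0.990%) reached 10 FPKM in all 8, while 57 (34.3%) and 119 (58.9%) stayed under 1 FPKM in all 8. For 205 contigs of the scale set (20.5%), at least 1 megagametophyte library was 2-fold or more above both cone tissues. The bract set held 47 such contigs (3.71%). The scale set was close in this to the contigs under 2-fold apart, at 17.5%.

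The contrast in presence was wide among moderately expressed contigs and narrow among abundant ones. In the class of 10 to 30 FPKM, 19.3% of the contigs higher in scales and 2.11% of those higher in bracts reached 10 FPKM in all megagametophyte libraries. In the class of 30 to 100 FPKM the shares were 31.4% and 12.4%, and at 100 FPKM or more 33.0% and 27.0%, the last from 94 and 115 contigs. Under the other offsets, minima and scalings and under the natural logarithm, the shares ranged from 8.59% to 38.5% for the scale set and from 1.17% to 16.02% for the bract set, and the scale set was ahead in each. Contigs are not replicates, and the difference between the sets was not tested.

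Both sets were more often at 10 FPKM on the last date than on the first. Of the 999 contigs higher in scales, 390, 424, 443 and 490 were at 10 FPKM or more in pollinated megagametophytes, from 10 June to 6 July in order of date, and 334, 438, 455 and 468 in unpollinated ones. Of the 1267 contigs higher in bracts, 166, 198, 233 and 265 were at that level in pollinated megagametophytes, and 187, 188, 264 and 332 in unpollinated ones. The contigs under 2-fold apart shifted likewise, with 60.8% at 10 FPKM or more on 10 June and 72.5% on 6 July in pollinated megagametophytes. The median level of the scale set in pollinated megagametophytes was 5.15 FPKM on 10 June and 9.56 FPKM on 6 July, and that of the bract set 0.905 and 2.27 FPKM.

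**Figure D5:**
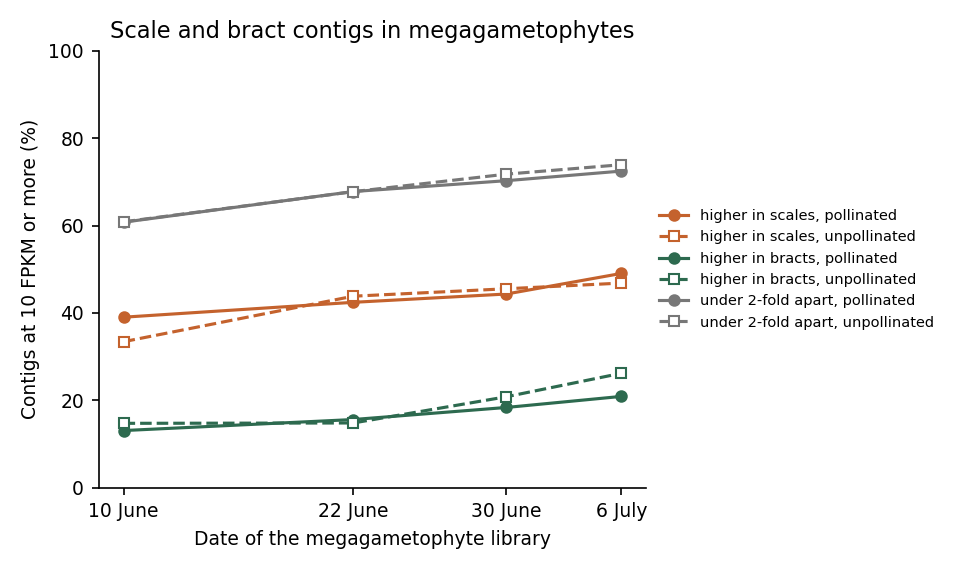
Points give the percentage of contigs at 10 FPKM or more in each megagametophyte library, by date (spaced by days) and pollination state, for contigs higher in scales, higher in bracts and under 2-fold apart. The scale set runs from 39.0% on 10 June to 49.0% on 6 July in pollinated megagametophytes and the bract set from 13.1% to 20.9%, below it on every date.

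Since whole scales can carry ovules, the transcripts most abundant in megagametophytes were looked up in both cone tissues. On 10 June, the date nearest to that of the cone tissues, 801 contigs stood at 100 FPKM or more with and without pollen. Their medians were 7.82 FPKM in scales against 5.96 FPKM in bracts, with 432 contigs above and 358 below their bract value in scales. Their summed level was 66464 FPKM in scales against 58148 FPKM in bracts, while all contigs summed to 482771 and 505259 FPKM. The 391 of them that reached 10 FPKM in either cone tissue leaned to scales, with 285 higher in scales and 101 higher in bracts by any amount. The split by any amount is not given here for all compared contigs, whose median difference was 0.02 log2 units. Of these 391, 27 (6.91%) were higher by 2-fold or more in scales and 4 (1.02%) in bracts, against 9.84% and 12.5% of all compared contigs. The remaining 410 were under 10 FPKM in both cone tissues, with medians of 0.444 FPKM in scales against 0.840 FPKM in bracts. That subset was limited to low values by its choice and lies in the range where the bract library as a whole ran higher. The part of ovule tissue in the scale library was not tested.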

How the data were processed

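Per the labels' protocols, libraries were made from polyA RNA without strand and sequenced as paired ends. The submitters' processing notes list R 3.1.0, RSEM 1.2.12, Bowtie 1.0.1, Trim Galore 0.2, FastQC 0.10 and bedtools 2.17, with no role for each. The authors deposited 1 table of FPKM on a log scale, taken here to be log2 values with 1 FPKM added, rounded to 2 decimals between 0.01 and 12.28. No source used here names the base or the offset, and every FPKM level and fold rests on this reading. Each contig has a value of at least 1.01 in some library, so contigs low everywhere are outside the table. Depth per library is unknown, so no counting intervals are given. No further normalization is named in those sources.

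Groups came from the labels. With 1 library a tissue no test was run: contigs with a higher value of 10 FPKM or more were counted by the size of the difference in log2(FPKM + 1), the offset of 1 FPKM understating the change of low contigs. The same counts on simulated columns recovered the known changes, which were 4-fold, well above the minimum level and set against little noise. That check does not bear on contigs near the 2-fold threshold or near 10 FPKM. The naming rule took the 2 widest differences per direction among contigs at 100 FPKM or more in a tissue. Marker lists could not be used without gene names. Alternatives covered the offset, the minimum, the size of the difference, the scaling and the logarithm. The comparison, its rules and the sets were chosen with earlier results of these data known. Python 3.11.15, numpy 2.4.6, scipy 1.17.1, pandas 2.3.3 and matplotlib 3.10.9 were used.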

Additional observations from a re-analysis of the deposited data

How the results depend on the processing

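No paired analysis was possible because each tissue has 1 library, and leaving out a library was not possible for the same reason. Counts of contigs higher by 2-fold or more in scales and in bracts were 3330 and 9207 with a minimum of 1 FPKM and with none, 355 and 462 with a minimum of 30 FPKM, and 316 and 467 at 4-fold. Reading the values as natural logarithms gave 2655 and 3550. Centring each class of level at a minimum of 1 FPKM, a setting added after the data were examined, gave 4783 and 3961; centring itself moves this balance. Counts of contigs present in 1 tissue and under 1 FPKM in the other were 23 for scales and 10 for bracts at 30 FPKM, and 366 and 577 with natural logarithms; with a limit of 2 FPKM in the other tissue the bract count was 243. The median difference was -0.33 log2 units with a minimum of 1 FPKM, -0.23 with none, 0.093 with equal sums, -0.029 with natural logarithms and 0 by construction after centring on the median. The causes of these shifts were not tested, except that a lower minimum or limit admits more contigs and a higher one fewer. Of the 801 contigs abundant on 10 June, the 27 higher in scales and 4 higher in bracts became 2 and 1 of 195 at 300 FPKM. The other 25 of 49 recomputed values stayed within 1.5 times the reported count or, for the median difference, between 0.01 and 0.04; they include 670 and 936 contigs with an offset of 5 FPKM, and 136 for scales and 124 for bracts under quantile normalization, where the order of the counts by level turned. With 1 library a tissue, differences between plants, dissections or library preparations cannot be told apart from differences between tissues.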

Other observations

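Contigs higher in 1 tissue had a next-numbered contig higher in that tissue more often than contigs under 2-fold apart did. Among 204 contigs higher in scales whose next-numbered contig was also compared, that neighbour was higher in scales in 64 cases (31.4%) and in bracts in 25. Among 300 contigs higher in bracts, the neighbour was higher in scales in 22 cases (7.33%) and in bracts in 112 (37.3%). The neighbour was itself under 2-fold apart for 115 of the 204 (56.4%) and 166 of the 300 (55.3%). Next to contigs under 2-fold apart, the shares were 8.66% for scales and 11.2% for bracts, and 80.1% were under 2-fold. Of the 10 widest differences on the scale side, 3 carried consecutive numbers, and on the bract side none did. The deposited table does not say whether contigs with consecutive numbers belong to 1 gene.

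In 47 of the 1936 pairs of consecutive contigs, 1 contig was 2-fold or more higher in scales and its neighbour 2-fold or more higher in bracts. When the FPKM of both contigs were added, 42 of these 47 pairs were less than 2-fold apart, and the median size of the difference of the sum was 0.40 log2 units. A further 5 pairs stayed 2-fold or more apart. Adding contigs picked for opposite differences must narrow the gap, and whether reads of 1 gene were divided between the contigs was not tested.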
